A study of Mus musculus with 12 samples.

Results

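Acute phase proteins are plasma proteins that the liver releases in changed amounts during inflammation. The group described here holds 10 genes: Lcn2, Saa1, Saa2, Saa3, Saa4, Orm2, Hp, Hpx, Fgb and Apcs. Its members are the 12 probe sets annotated to exactly 1 of these symbols, out of 28898 probe sets with a single gene (17097 genes). The arrays measured mRNA in livers of male mice from 4 groups: Pml knockout on a high-fat diet, wild type on a high-fat diet, Pml knockout on a low-fat diet and wild type on a low-fat diet. The high-fat diet held 60% of calories from fat and the low-fat (control) diet 10%. All mice ate their diet for 20 weeks, and tissue was collected after a fast of 8 h. Each group has 3 liver extracts, chosen from its 8 mice, and each extract has its own array. The labels do not say whether the knockout acts in every cell or in hepatocytes alone, give no strain, and do not state outright that the 3 extracts came from 3 mice. Each p-value below thus reflects only the spread among extracts, and 3 arrays a group limit the precision. The title of the series places the work in a study of PML, PPAR signalling and fatty acid oxidation in breast cancer.

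The acute phase response is driven mainly by interleukin-6, interleukin-1 and tumour necrosis factor, which act on hepatocytes through STAT3, NF-kB and C/EBP factors. Positive acute phase proteins rise in this response. In the mouse, the serum amyloid A proteins SAA1 and SAA2 and the serum amyloid P component APCS are the classical strongly responding ones, whereas human liver leans on CRP and the SAA proteins. Lipocalin-2 and the serum amyloid A proteins form the defence and lipid-binding branch of the group. Haptoglobin and hemopexin scavenge haemoglobin and haem, fibrinogen beta is a clotting subunit, and orosomucoid 2 is an acid glycoprotein that binds small molecules.

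Of the 12 probe sets, Saa2 and Saa4 have 2 each and the other 8 genes have 1 each. The brightest probe set stood for its gene in a fit of 10258 genes, and all 10 members passed the filter on dim genes, which asked for a mean log2 signal of at least 4.08 over the 12 arrays. The 2 other probe sets were read from a second fit over all 28898 single-gene probe sets. The suffix of 1 Saa2 probe set (1419075_PM_s_at) marks probes that can match more than 1 transcript, and that of the other (1449326_PM_x_at) marks probes open to cross-hybridisation. RefSeq lists Saa2 as an older name of Saa1 and Saa1 as an older name of Saa2. Signals of Saa1 and Saa2 therefore cannot be taken as fully separate measurements.

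Saa1, Saa2, Saa3 and Saa4 lie on chromosome 7, Hpx elsewhere on the same chromosome, Apcs on chromosome 1, Lcn2 on chromosome 2, Fgb on chromosome 3, Orm2 on chromosome 4 and Hp on chromosome 8. RefSeq's promoter table (GRCm38.p6) held 9 of the 10 members, all but Hp. The 250 bases before the gene start are shown for Lcn2, Saa1 and Saa2, which changed together with diet in knockout livers, and for Saa3, a neighbour whose change missed the threshold. Each reads 5′ to 3′ along the strand of its gene, and capitals mark a match to the NF-kB element (the letters GGG and CC with NNNNN, any bases, between them) or to the C/EBP element TTNNGNAAT on either strand.
Lcn2, chr2:32387740-32387989, minus strand: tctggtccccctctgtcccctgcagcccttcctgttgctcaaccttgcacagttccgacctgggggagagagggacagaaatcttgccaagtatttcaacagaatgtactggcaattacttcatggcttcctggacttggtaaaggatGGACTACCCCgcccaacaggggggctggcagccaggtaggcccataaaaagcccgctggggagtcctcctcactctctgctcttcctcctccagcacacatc
Saa1, chr7:46742981-46743230, minus strand: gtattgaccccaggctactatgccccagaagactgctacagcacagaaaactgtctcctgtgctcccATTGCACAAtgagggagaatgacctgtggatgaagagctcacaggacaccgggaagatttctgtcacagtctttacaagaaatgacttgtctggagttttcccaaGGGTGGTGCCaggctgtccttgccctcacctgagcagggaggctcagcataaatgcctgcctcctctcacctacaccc
Saa2, chr7:46751583-46751832, plus strand: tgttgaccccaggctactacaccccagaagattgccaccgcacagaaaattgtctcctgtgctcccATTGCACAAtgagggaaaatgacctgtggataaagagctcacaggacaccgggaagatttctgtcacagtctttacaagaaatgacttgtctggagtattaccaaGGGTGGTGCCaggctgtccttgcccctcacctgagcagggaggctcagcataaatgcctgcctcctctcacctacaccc
Saa3, chr7:46715677-46715926, minus strand: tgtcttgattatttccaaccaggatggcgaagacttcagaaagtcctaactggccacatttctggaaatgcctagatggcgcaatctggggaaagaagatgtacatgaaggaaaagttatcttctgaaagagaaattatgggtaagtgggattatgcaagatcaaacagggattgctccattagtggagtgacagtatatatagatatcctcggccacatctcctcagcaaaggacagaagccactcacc
The Saa1 and Saa2 windows were 94.8% identical, with 238 of 251 aligned positions the same, whereas the other pairs of serum amyloid A windows shared 46.8% to 52.4%. Saa1 and Saa2 hold the same NF-kB match, GGGTGGTGCC, from 78 to 69 bases before the start in Saa1 and from 79 to 70 in Saa2. They also share the C/EBP match ATTGCACAA, from 183 to 175 and from 184 to 176 bases before the start. The Lcn2 match, GGACTACCCC, lies 102 to 93 bases before the start and, like this C/EBP match, is on the opposite strand. Among the 9 windows the NF-kB letters were found in 4 (Lcn2, Saa1, Saa2 and Saa4), the C/EBP letters in 3 (Saa1, Saa2 and Orm2) and the STAT element TTCNNNGAA in 2 (Fgb and Apcs). Of 32841 windows in the table, 45.8% held the NF-kB letters, 10.2% the C/EBP letters and 7.02% the STAT letters. The Saa3 and Hpx windows held none of the 3. These matches are descriptions of the letters and do not show binding.

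Pml, the deleted gene, was lower in every knockout liver. Its brighter probe set (1448757_PM_at) had a log2 signal of 3.43, 3.04 and 3.82 in knockout and 4.97, 5.35 and 5.38 in wild-type livers on the high-fat diet. Low-fat livers had 3.70, 3.59 and 3.59 in knockout and 5.40, 4.92 and 5.07 in wild-type mice. The labels do not say whether its probes lie in the deleted part. Hepatocyte markers, read to check the tissue label, had a mean log2 signal of 11.83 to 12.23 over the 12 livers, with albumin (Alb) at 13.65 to 13.78. Of the 12 hepatocyte markers Pck1 alone lay under the filter. Macrophage and Kupffer cell markers stood apart in 2 livers, at 5.13 in knockout low-fat replicate 2 and 5.73 in knockout high-fat replicate 3, against 6.26 to 7.22 in the others. In a whole liver, fewer cells of a type and less RNA per cell cannot be told apart.

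Lcn2 encodes lipocalin-2, which withholds iron from bacteria by binding their siderophores and is made by hepatocytes in inflammation and by neutrophils. On the high-fat diet the log2 signal was 8.74, 8.16 and 6.94 in knockout and 6.22, 6.10 and 6.18 in wild-type livers. The low-fat values were 5.39, 4.98 and 4.84 in knockout and 5.08, 4.71 and 6.24 in wild-type livers. The 3 knockout high-fat livers were the 3 highest of all 12, and wild-type low-fat replicate 3 overlapped the wild-type high-fat livers. In knockout livers Lcn2 was 7.35-fold higher on the high-fat than on the low-fat diet (log2 change 2.88, SE 0.417, limma adjusted p = 0.00435). In this fit that was the largest increase among the 10258 genes tested. In wild-type livers the log2 change with diet was 0.83 (SE 0.417, limma adjusted p = 0.609). The difference between these diet effects was 2.05 (95% interval 0.77 to 3.33) and did not pass among all genes (unadjusted p = 0.00435, limma adjusted p = 0.802). On the high-fat diet the knockout minus wild-type change was 1.78 (SE 0.417, limma adjusted p = 0.799), the third largest increase in that comparison. On the low-fat diet it was -0.27 (SE 0.417, limma adjusted p = 0.902).

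The spread of Lcn2 differed between groups. The SD was 0.917 in knockout and 0.0636 in wild-type high-fat livers, and 0.282 in knockout and 0.796 in wild-type low-fat livers (n = 3 each). Pooled over the groups, the SD was 0.624, higher than in 98.9% of the genes tested. Leaving out each array in turn gave log2 changes with diet in knockout livers of 2.48 to 3.38 and limma adjusted p-values up to 0.0265. Lcn2 thus passed in each of these refits.

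Neutrophil granules also hold LCN2 protein, so neutrophil markers were read beside it. Of 10 neutrophil markers on the array, 6 passed the filter, and by limma 0 of these passed in any of the 7 comparisons, with 0 at an unadjusted p under 0.05. The mean log2 signal of these 6 was 4.57 to 4.69 in knockout and 4.55 to 4.59 in wild-type high-fat livers. It was 4.42 to 4.70 in knockout and 4.42 to 4.53 in wild-type low-fat livers. S100a8, Camp, Ltf and Mmp8, which mark these cells, lay under the filter. In that order they ran from 2.69 to 3.45, 3.14 to 3.67, 3.46 to 4.03 and 3.11 to 3.72 over the 12 livers. Among group means, knockout high-fat livers had the highest of S100a8 (3.34), Camp (3.50) and Ltf (3.91) and the lowest of Mmp8 (3.32). All these signals are dim. With diet in knockout livers the median log2 change of the 6 was 0.14, with 4 higher and 2 lower. Over the 12 livers r between Lcn2 and the neutrophil level was 0.381, and -0.410 after group means were subtracted. The part of these cells in the Lcn2 result was not tested.

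**Figure D1:**
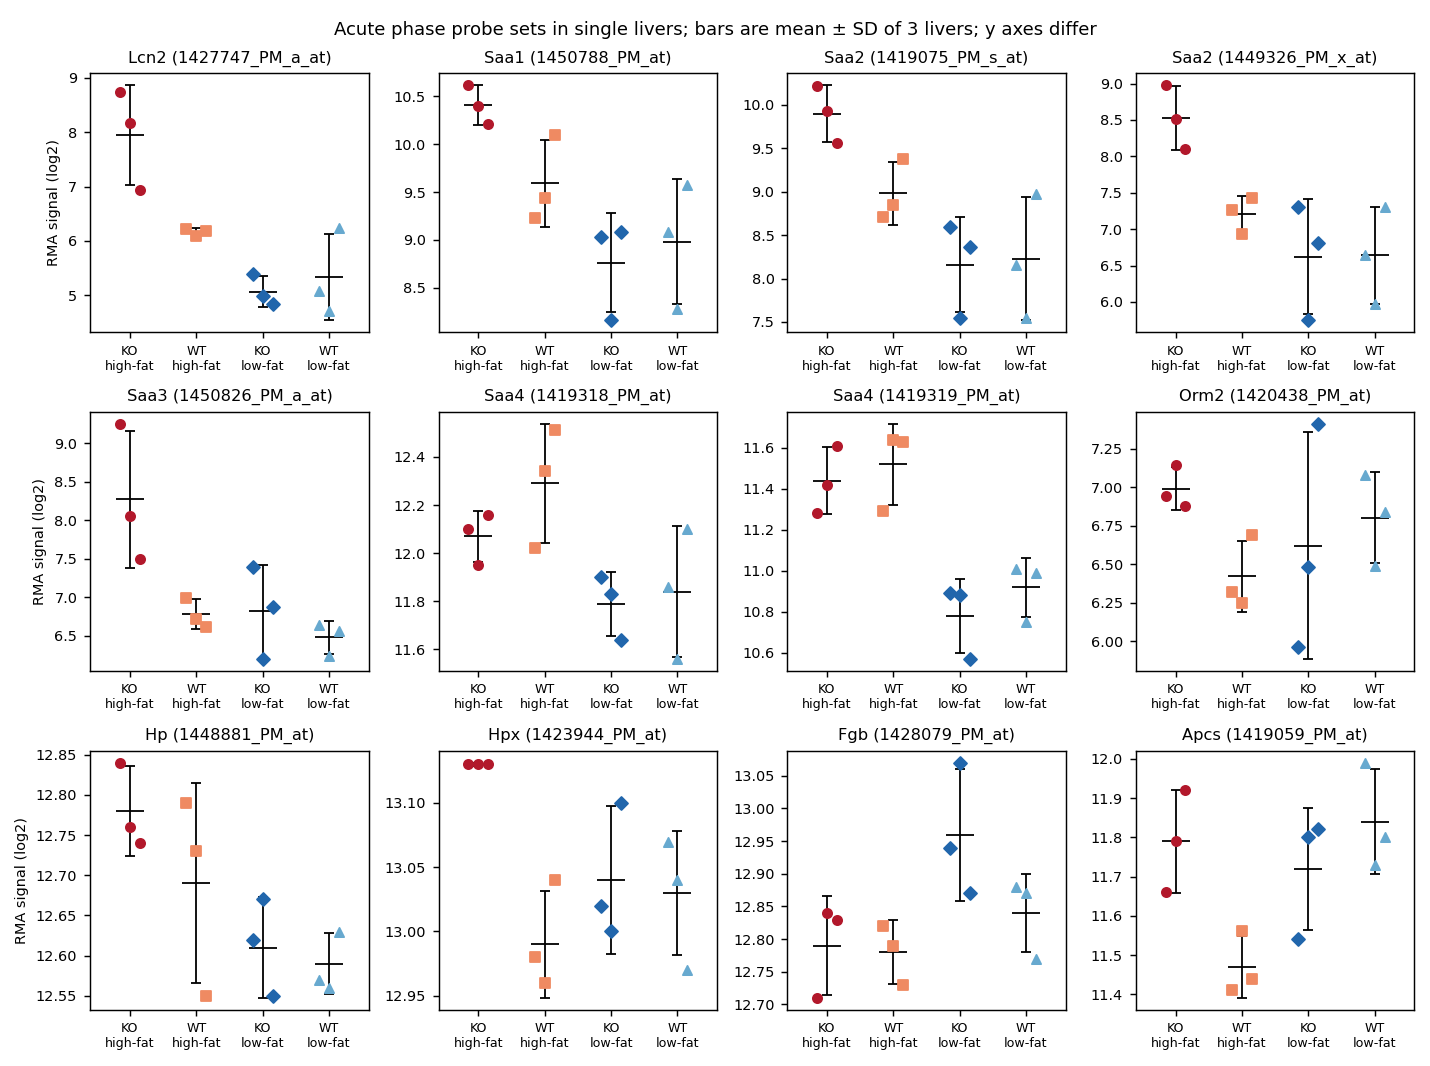
Log2 RMA signal (y axes, scales differ between panels) of the 12 acute phase probe sets in single livers of the 4 groups (x axes); horizontal bars and whiskers are mean and SD of 3 livers. Knockout high-fat livers hold the 3 highest values of Lcn2, Saa1, Saa2 and Saa3, whereas the Hp, Hpx and Fgb panels span 0.30, 0.18 and 0.36 in all.

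Saa1 and Saa2 encode the inducible serum amyloid A proteins of plasma, which bind to high-density lipoprotein in the acute phase. The log2 signal of Saa1 was 10.62, 10.40 and 10.21 in knockout and 9.23, 9.44 and 10.10 in wild-type livers on the high-fat diet. Under the low-fat diet, knockout livers had 9.03, 8.16 and 9.08 and wild-type livers 9.08, 8.28 and 9.57. Knockout high-fat livers again took the 3 highest places, and wild-type high-fat replicate 3, at 10.10, came next. Saa1 was 3.14-fold higher on the high-fat than on the low-fat diet among knockouts (log2 change 1.65, SE 0.323, limma adjusted p = 0.0195). In wild-type livers the log2 change was 0.61 (SE 0.323, limma adjusted p = 0.631), and the difference between the diet effects was 1.04 (95% interval 0.05 to 2.03, limma adjusted p = 0.852). Knockout minus wild type was 0.82 on the high-fat diet (SE 0.323, limma adjusted p = 0.996) and -0.22 on the low-fat diet (SE 0.323, limma adjusted p = 0.895).

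Saa2 followed Saa1 on both of its probe sets. The brighter one (1419075_PM_s_at) had a log2 signal of 10.22, 9.93 and 9.56 in knockout and 8.71, 8.85 and 9.38 in wild-type livers on the high-fat diet. On the low-fat diet it was 8.59, 7.54 and 8.36 in knockout and 8.16, 7.55 and 8.97 in wild-type livers. It was 3.34-fold higher with the high-fat diet in livers without Pml (log2 change 1.74, SE 0.339, limma adjusted p = 0.0195). The wild-type change with diet was 0.75 (SE 0.339, limma adjusted p = 0.552). The second probe set (1449326_PM_x_at) had 8.98, 8.51 and 8.10 in knockout and 7.26, 6.94 and 7.43 in wild-type livers on the high-fat diet. Low-fat livers had 7.30, 5.75 and 6.81 in knockout and 6.64, 5.97 and 7.30 in wild-type mice. On this probe set the wild-type high-fat livers reached at most 7.43, against a lowest value of 8.10 in knockout high-fat livers. Its change with diet was 1.91 in knockout (SE 0.363, limma adjusted p = 0.0252 over all probe sets) and 0.58 in wild-type livers (limma adjusted p = 0.788).

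Over the 12 livers Pearson's r between Saa1 and the brighter Saa2 probe set was 0.987, and it was 0.965 after the group means were subtracted. The pair of Saa2 probe sets had r = 0.974, and Lcn2 and the brighter Saa2 probe set r = 0.930 (0.725 after group means). These are descriptions over 12 livers that share the 4 groups, and the Saa1 and Saa2 probes may share targets. The Saa1 and Saa2 calls in knockout livers depended on single arrays. Both genes missed the threshold without knockout high-fat replicate 1 (limma adjusted p = 0.0560 for Saa1 and 0.0569 for Saa2), without knockout high-fat replicate 2 (0.0804 for both) and without knockout low-fat replicate 2 (0.0655 for both). The log2 change over all single omissions stayed between 1.35 and 1.81 for Saa1 and between 1.43 and 1.95 for Saa2.

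**Figure D2:**
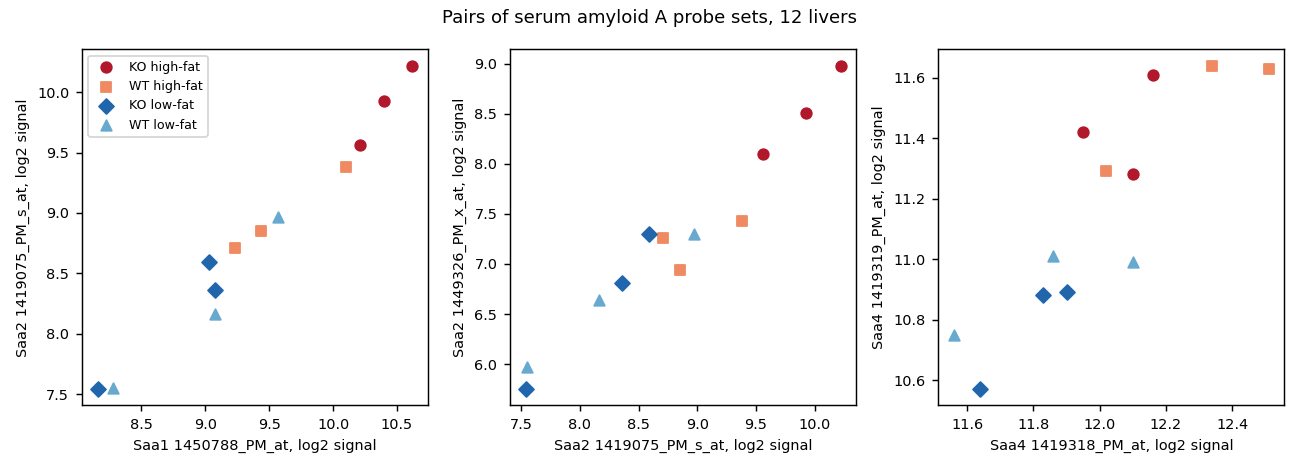
Log2 signals of pairs of serum amyloid A probe sets in the 12 livers: Saa1 against the brighter Saa2 probe set, the 2 Saa2 probe sets and the 2 Saa4 probe sets; colours and shapes give the group. The first 2 panels run along a line with the knockout high-fat livers at the upper end (r = 0.987 and 0.974), and in the Saa4 panel (r = 0.870) both high-fat groups lie above the low-fat groups on the y axis.

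Saa3 encodes a serum amyloid A that in the mouse is made in many tissues, macrophages and fat included, besides the liver. High-fat livers had log2 signals of 9.25, 8.06 and 7.50 in knockout and 6.99, 6.72 and 6.62 in wild-type mice. The low-fat values were 7.40, 6.20 and 6.87 in knockout and 6.64, 6.24 and 6.57 in wild-type livers. All knockout high-fat livers lay above the rest, and knockout low-fat replicate 1, at 7.40, came next. The change with diet in knockout livers was 1.45 (SE 0.373) and missed the threshold (limma adjusted p = 0.0573). It passed after quantile normalization (limma adjusted p = 0.0466) and without knockout high-fat replicate 3, at 1.83 (limma adjusted p = 0.0351), and was between 0.96 and 1.83 over all single omissions. In wild-type livers the change was 0.29 (SE 0.373, limma adjusted p = 0.886). Knockout minus wild type was 1.49 on the high-fat diet (95% interval 0.69 to 2.30, unadjusted p = 0.00162, limma adjusted p = 0.996) and 0.34 on the low-fat diet (SE 0.373, limma adjusted p = 0.846).

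Macrophage markers ordered the 3 livers of each knockout group as Saa3 did, but not those of the wild-type groups. Their mean log2 signal was 7.22, 6.83 and 5.73 in knockout and 6.67, 6.81 and 6.72 in wild-type livers on the high-fat diet. Under the low-fat diet, knockout livers had 6.96, 5.13 and 6.54 and wild-type livers 6.28, 6.54 and 6.26. Over the 12 livers r between Saa3 and the macrophage level was 0.526, and 0.817 after group means. Between Saa3 and the liver endothelial level it was -0.079, and 0.853 after group means. Of the 11 macrophage markers tested (Timd4 lay under the filter), 0 passed by limma in any comparison, and 0 had an unadjusted p under 0.05. With the high-fat diet 9 of 11 were higher in knockout livers (median log2 change 0.47), 11 of 11 in wild-type livers (0.43) and 11 of 11 averaged over the genotypes (0.37). The part of these cells in the Saa3 result was not tested. Without knockout low-fat replicate 2 and knockout high-fat replicate 3, the livers with the lowest macrophage levels, the change with diet in knockout livers was 1.52 for Saa3 (limma adjusted p = 0.0736) and 3.33 for Lcn2 (limma adjusted p = 0.0104). It was then 1.45 for Saa1 and 1.60 for Saa2, and both missed the threshold (limma adjusted p = 0.110 and 0.0871).

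**Figure D3:**
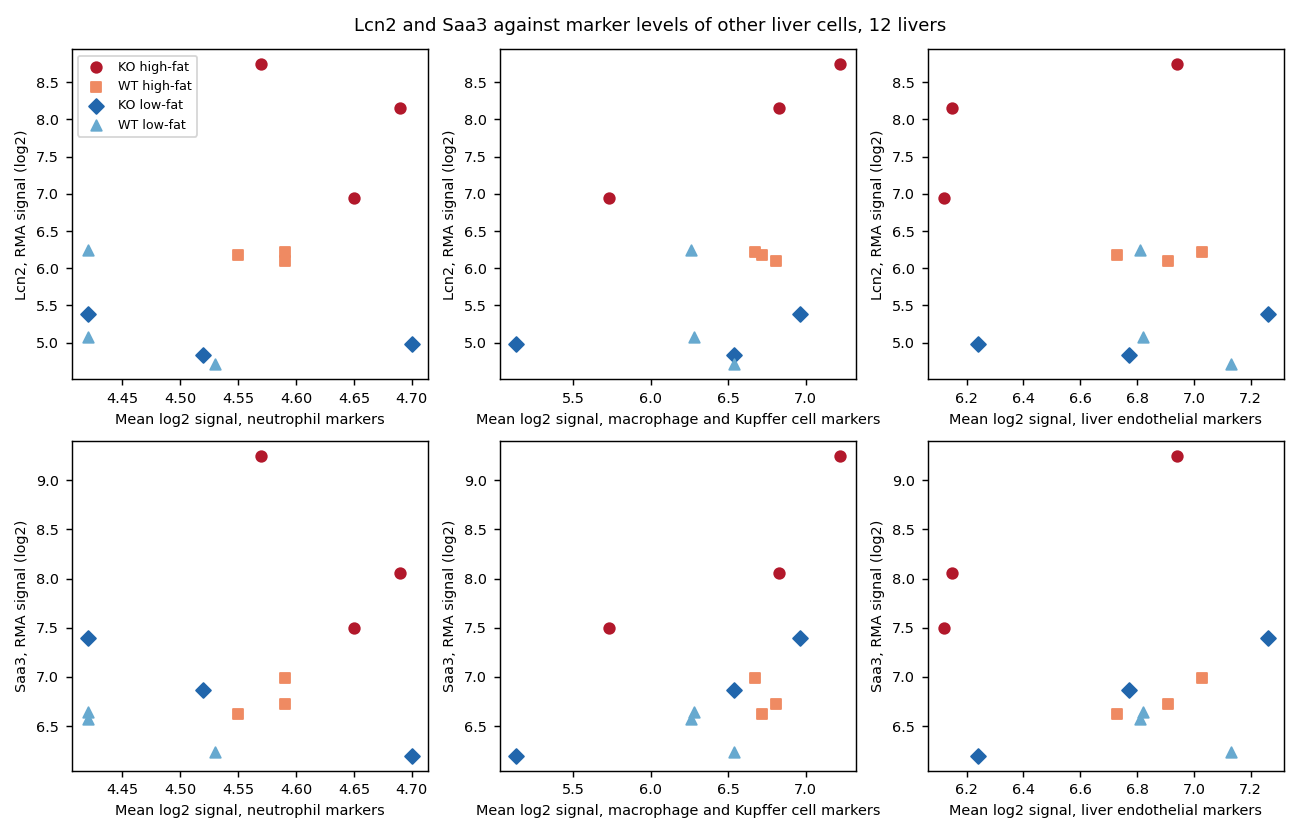
Log2 signal of Lcn2 (upper row) and Saa3 (lower row) against the mean log2 signal of neutrophil, macrophage and liver endothelial markers in the 12 livers. The neutrophil axis spans 4.42 to 4.70, and the 2 livers with the lowest macrophage level (5.13 and 5.73) are knockout low-fat replicate 2 and knockout high-fat replicate 3.

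Saa4 encodes the constitutive serum amyloid A of plasma. Its 2 probe sets gave different calls. The brighter one (1419318_PM_at) had a log2 signal of 12.10, 11.95 and 12.16 in knockout and 12.02, 12.34 and 12.51 in wild-type livers on the high-fat diet. On the low-fat diet it was 11.90, 11.83 and 11.64 in knockout and 11.86, 11.56 and 12.10 in wild-type livers. Knockout high-fat livers lay above knockout low-fat livers, and the wild-type groups overlapped. The change with diet was 0.28 in knockout (SE 0.138, limma adjusted p = 0.309) and 0.45 in wild-type livers (SE 0.138, limma adjusted p = 0.300). Averaged over the genotypes it was 0.37 (SE 0.0975) and missed the threshold (limma adjusted p = 0.0536). It passed in 5 of 22 alternatives, among them without wild-type high-fat replicate 1 (0.43, limma adjusted p = 0.0279) and without wild-type low-fat replicate 3 (0.43, limma adjusted p = 0.0258).

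The second Saa4 probe set (1419319_PM_at) had 11.28, 11.42 and 11.61 in knockout and 11.29, 11.64 and 11.63 in wild-type livers on the high-fat diet. Low-fat livers had 10.89, 10.88 and 10.57 in knockout and 11.01, 10.75 and 10.99 in wild-type mice. Here all 6 high-fat livers lay above all 6 low-fat livers, and the genotypes overlapped on both diets. Over all probe sets it was 1.57-fold higher with the high-fat diet in knockouts (log2 change 0.65, SE 0.117, limma adjusted p = 0.0167). Averaged over the genotypes it was 1.55-fold higher (log2 change 0.63, SE 0.0825, limma adjusted p = 0.00134). In wild-type livers the change was 0.60 (SE 0.117, limma adjusted p = 0.0980), and the difference between the diet effects was 0.05 (95% interval -0.30 to 0.40). The call in knockout livers was lost without knockout high-fat replicate 2 (limma adjusted p = 0.0819), without knockout high-fat replicate 3 (0.0812) and without the 2 livers low in macrophage markers (0.114).

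Orm2 encodes orosomucoid 2, an alpha-1-acid glycoprotein. Its log2 signal was 6.94, 7.14 and 6.88 in knockout and 6.32, 6.25 and 6.69 in wild-type livers on the high-fat diet. The low-fat values were 5.96, 6.48 and 7.41 in knockout and 7.08, 6.49 and 6.84 in wild-type livers. The knockout high-fat livers lay above the wild-type high-fat livers, but the highest and the lowest of all 12 values were both from knockout low-fat livers. Knockout minus wild type was 0.57 on the high-fat diet (SE 0.285, limma adjusted p = 0.996) and -0.19 on the low-fat diet (SE 0.285, limma adjusted p = 0.902). The change with diet was 0.37 in knockout (limma adjusted p = 0.544) and -0.38 in wild-type livers (limma adjusted p = 0.781).

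Hp encodes haptoglobin, which binds free haemoglobin. On the high-fat diet the log2 signal was 12.84, 12.76 and 12.74 in knockout and 12.79, 12.73 and 12.55 in wild-type livers. Under the low-fat diet, knockout livers had 12.62, 12.67 and 12.55 and wild-type livers 12.57, 12.56 and 12.63. The change with diet was 0.17 in knockout livers (SE 0.0611, limma adjusted p = 0.161), whose groups did not overlap, and 0.10 in wild-type livers (SE 0.0611, limma adjusted p = 0.701), whose groups did. Wild-type high-fat replicate 3 lay with the low-fat livers.

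Hpx encodes hemopexin, which binds free haem. Its log2 signal was 13.13 in each of the 3 knockout livers and 12.98, 12.96 and 13.04 in wild-type livers on the high-fat diet. On the low-fat diet it was 13.02, 13.00 and 13.10 in knockout and 13.07, 13.04 and 12.97 in wild-type livers. The knockout high-fat livers held the 3 highest values, with an SD of 0.00133, against an SD of 0.0418 to 0.0578 in the other groups. Knockout minus wild type was 0.14 on the high-fat diet (SE 0.0428, unadjusted p = 0.00646, limma adjusted p = 0.996) and 0.01 on the low-fat diet (SE 0.0428, limma adjusted p = 0.971). Only 0.0934% of the single-gene probe sets were brighter on average than that of Hpx, and 0.239% than that of Hp. Changes of probe sets this close to the top of the range can be compressed, which was not tested here. The small spans of Hp and Hpx therefore need not bound the change in mRNA.

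Fgb encodes the beta chain of fibrinogen, the precursor of fibrin. High-fat livers had log2 signals of 12.71, 12.84 and 12.83 in knockout and 12.82, 12.79 and 12.73 in wild-type mice. Low-fat livers had 12.94, 13.07 and 12.87 in knockout and 12.88, 12.87 and 12.77 in wild-type mice. In knockout livers every high-fat value lay below every low-fat value, the opposite order to Lcn2 and the serum amyloid A genes. The change with diet was -0.16 in knockout (SE 0.0588, limma adjusted p = 0.148) and -0.06 in wild-type livers (SE 0.0588, limma adjusted p = 0.836). Over the 12 livers r between Fgb and Saa1 was -0.758, and -0.797 after group means. Fgb was also among the brightest, with 0.145% of probe sets above it.

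Apcs encodes serum amyloid P component, a pentraxin that binds amyloid fibrils and microbes. Its log2 signal was 11.66, 11.79 and 11.92 in knockout and 11.41, 11.56 and 11.44 in wild-type livers on the high-fat diet. The low-fat values were 11.54, 11.80 and 11.82 in knockout and 11.99, 11.73 and 11.80 in wild-type livers. The wild-type high-fat livers lay below the wild-type low-fat and the knockout high-fat livers, a pattern that no other member had. The change with diet was -0.37 in wild-type (SE 0.0927, unadjusted p = 0.00159, limma adjusted p = 0.165) and 0.06 in knockout livers (SE 0.0927, limma adjusted p = 0.772). Knockout minus wild type was 0.32 on the high-fat diet (SE 0.0927, limma adjusted p = 0.996) and -0.12 on the low-fat diet (SE 0.0927, limma adjusted p = 0.770). The difference between the diet effects was 0.44 (95% interval 0.15 to 0.72, unadjusted p = 0.00567, limma adjusted p = 0.802).

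**Figure D4:**
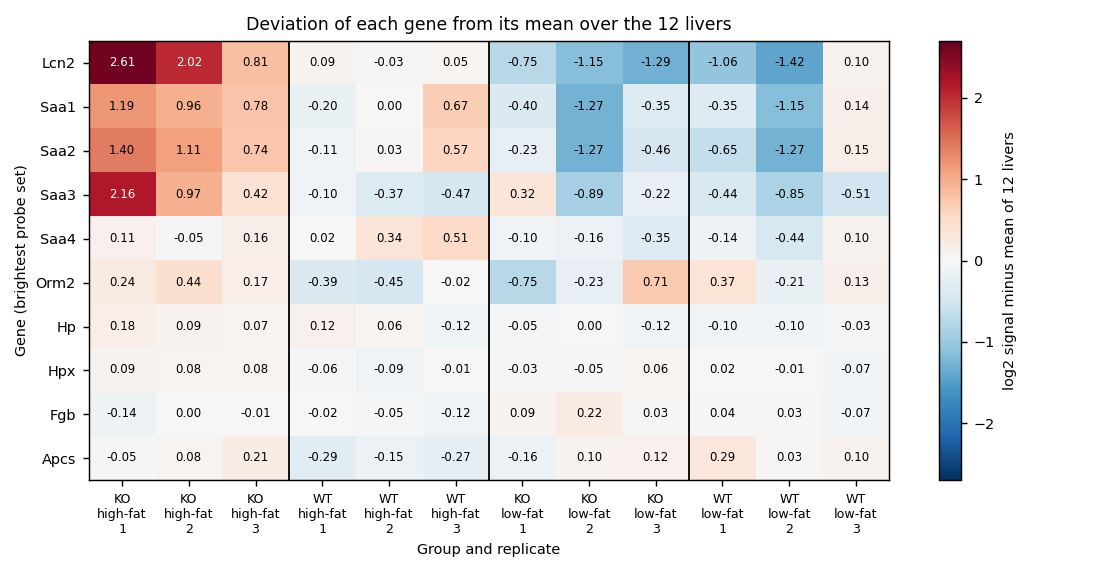
Log2 signal of the 10 genes (rows, brightest probe set) in the 12 livers (columns) minus the gene's mean over all 12, with the value in each cell. Lcn2 and Saa3 reach 2.61 and 2.16 in knockout high-fat replicate 1, and Hp, Hpx and Fgb stay between -0.14 and 0.22 in all livers.

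Knockout high-fat replicate 1 had the highest value of Lcn2, Saa1, Saa2, Saa3, Hp and Hpx and the lowest of Fgb. Averaged over Lcn2, Saa1, Saa2 and Saa3, the deviation from the mean of all livers was 1.84, 1.27 and 0.69 in knockout and -0.08, -0.09 and 0.20 in wild-type livers on the high-fat diet. Under the low-fat diet, knockout livers had -0.27, -1.15 and -0.58 and wild-type livers -0.63, -1.17 and -0.03. The lowest averages were thus in 1 liver of each genotype on the low-fat diet, replicate 2 of both.

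The comparison of diets in knockout livers asked how a fat load acts when Pml is missing. Lcn2, Saa1 and Saa2 rose, and no member fell past the threshold: 3 of 10 members passed, against 3.03% of all genes tested (311 of 10258). Shares of members, here and below, are descriptions and not tests. The members were chosen with earlier results of these data known, and Saa1 and Saa2 are not fully separate measurements. The median log2 change was 0.33 over the 10 members and -0.01 over all genes. In 7 members (Lcn2, Saa1, Saa2, Saa3, Saa4, Hp and Hpx) every high-fat liver lay above every low-fat liver, which 10.8% of all genes did. An unadjusted p under 0.05 was found for 7 members (the 3 called and Saa3, Hp, Hpx and Fgb), against 18.3% of all genes. Fgb lay below without overlap, as did 10.9% of all genes. In the fit of every probe set, the second probe sets of Saa2 and Saa4 passed too, against 0.789% of all probe sets. Actin probe sets, whose 3′ minus 5′ difference reports on RNA quality, gave 1.41 to 1.44 in high-fat and 1.48 to 1.55 in low-fat knockout livers, and hepatocyte markers averaged 11.93 to 11.95 in high-fat and 11.97 to 12.23 in low-fat knockout livers. Liver endothelial markers averaged 6.12 to 6.94 in high-fat and 6.24 to 7.26 in low-fat knockout livers, with 10 of 11 lower (median log2 change -0.49), 0 past the limma threshold and 3 at an unadjusted p under 0.05. Knockout high-fat replicates 2 and 3 and knockout low-fat replicate 2, at 6.15, 6.12 and 6.24, lay below the other livers, at 6.73 or more. Of the macrophage markers 9 of 11 were higher with the high-fat diet (median log2 change 0.47). The part of any of these in the member changes was not tested.

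In wild-type livers 0 of 10 members passed with diet, against 0.175% of all genes (18 of 10258). An unadjusted p under 0.05 was found for 3 members (Saa2, Saa4 and Apcs), against 8.82% of all genes, and the median log2 change was 0.20 over members and 0.00 over all genes. By range, 0 members lay above without overlap, against 7.83% of all genes, and Apcs lay below, as did 7.89% of all genes. Averaged over both genotypes, Lcn2 (log2 change 1.85, SE 0.295, limma adjusted p = 0.00493), Saa1 (1.13, SE 0.228, limma adjusted p = 0.0149) and Saa2 (1.25, SE 0.240, limma adjusted p = 0.0115) rose with the high-fat diet. These 3 of 10 members compare with 4.56% of all genes (468 of 10258). At an unadjusted p under 0.05 there were 8 members, all but Orm2 and Hpx, against 19.7% of all genes. In the fit of every probe set, both second probe sets passed here, against 1.5% of probe sets, and neither did in wild-type livers, against 0.0865%.

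Whether the diet acted differently in the genotypes was tested directly by the difference of the diet effects. By limma 0 of 10 members passed, as did 0% of all 10258 genes. An unadjusted p under 0.05 was found for 4 members (Lcn2, Saa1, Saa3 and Apcs), against 5.70% of all genes. The calls of Lcn2, Saa1 and Saa2 in knockout livers alone are therefore not shown to be particular to the knockout.

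The comparison of genotypes on the high-fat diet asked what the loss of Pml does under a fat load. By limma 0 of 10 members passed, against 0.00975% of all genes (Pml alone). An unadjusted p under 0.05 was found for 6 members (Lcn2, Saa1, Saa2, Saa3, Hpx and Apcs), against 4.46% of all genes. In 7 members (these 6 and Orm2) every knockout liver lay above every wild-type liver, as did 6.62% of all genes, and the median log2 change was 0.44 over the members and 0.00 over all genes. Liver endothelial markers averaged 6.12 to 6.94 in knockout and 6.73 to 7.03 in wild-type livers on this diet, with 11 of 11 tested markers lower, 0 past the limma threshold and 3 at an unadjusted p under 0.05. The actin difference did not overlap either, at 1.41 to 1.44 in knockout and 1.51 to 1.64 in wild-type livers on this diet, whereas that of Gapdh did (0.32 to 0.43 in knockout and 0.40 to 0.53 in wild-type livers). The part of the markers and of RNA quality was not tested. On the low-fat diet 0 of 10 members passed by limma, against 0.00975% of all genes, and 0 had an unadjusted p under 0.05, against 8.72% of all genes. The groups overlapped in all 10 members there, whereas 12% of all genes did not overlap, and the median log2 change was -0.05. Averaged over the diets, 0 of 10 members passed by limma, against 0.0195% of all genes. The 3 members at an unadjusted p under 0.05 were Lcn2, Saa3 and Hpx, against 7.26% of all genes. The comparisons on 1 diet or in 1 genotype share their groups with one another and are not independent.

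**Figure D5:**
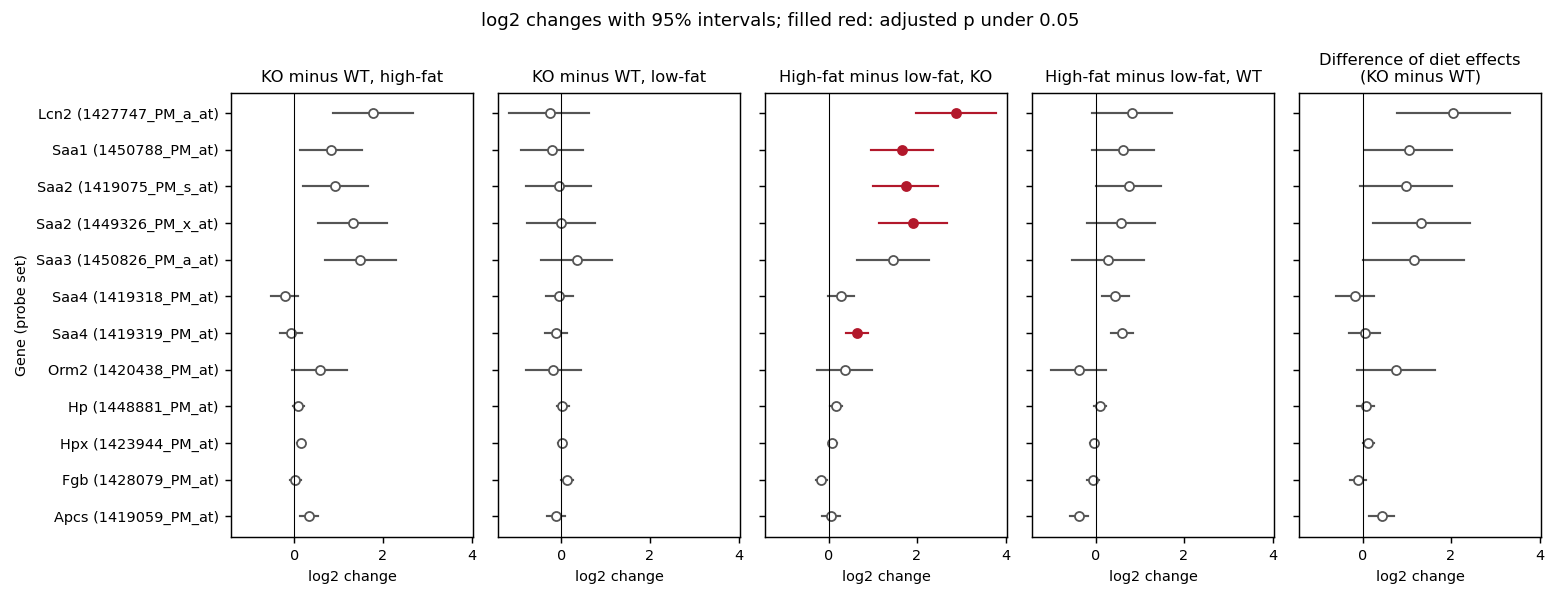
Log2 change (x axes) of the 12 probe sets with 95% intervals in 5 comparisons; filled red points have an adjusted p under 0.05, from the gene fit for the brightest probe set of a gene and from the fit of every probe set for 1449326_PM_x_at and 1419319_PM_at. The red points, Lcn2, Saa1, both Saa2 probe sets and 1 Saa4 probe set, all lie in the panel of diets in knockout livers.

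Most of the other positive acute phase genes, 24 of them tested, missed the threshold in every comparison. In knockout livers with diet Lrg1, a leucine-rich glycoprotein of plasma, rose 1.51-fold (log2 change 0.60, SE 0.127, limma adjusted p = 0.0284), the single one of 24 to pass. Of all genes 3.03% passed there. The list's median was -0.02, against -0.01 over all genes. An unadjusted limma p under 0.05 was found for 5 of the 24, against 18.3% of all genes. Averaged over the genotypes, Lrg1 (0.56, limma adjusted p = 0.00507) and Mt1, a metallothionein (1.87, limma adjusted p = 0.0246), rose and Hamp2, of the hepcidin family, fell (-0.71, limma adjusted p = 0.0404). Of all genes 4.56% passed in that averaged comparison. There 10 of the 24 had an unadjusted limma p under 0.05, against 19.7% of all genes. On the high-fat diet 0 of 24 passed between genotypes by limma, and the median was 0.02. In that comparison 1 of the 24 had an unadjusted p under 0.05, against 4.46% of all genes. Of 11 tested negative acute phase genes, such as Ttr, Serpina6 and Apoa1, whose products normally fall in inflammation, 0 passed by limma in any of the 7 comparisons, with 0 at an unadjusted p under 0.05.

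Of 26 listed cytokines, receptors and transcription factors of the response, 22 were on the array and 17 passed the filter and were tested. With diet in knockout livers 1 of the 17 passed, against 3.03% of all genes. An unadjusted limma p under 0.05 was found there for 4, against 18.3% of all genes. Hnf4a, a nuclear receptor of hepatocyte identity that is also a hepatocyte marker here, fell (log2 change -0.39, SE 0.0777, limma adjusted p = 0.0230). Cebpa, a C/EBP factor, fell with the high-fat diet averaged over the genotypes (-0.40, SE 0.0886, limma adjusted p = 0.0230). Of the 17, 1 passed there, against 4.56% of all genes. Between genotypes 0 of 17 passed by limma on either diet, against 0.00975% of all genes on each. At an unadjusted limma p under 0.05 there was 1 on the high-fat diet, against 4.46% of all genes. On the low-fat diet there were 3, against 8.72%. The interleukin-1 receptor Il1r1 had -1.15 on the high-fat diet (SE 0.357, limma adjusted p = 0.996). The NF-kB cofactor Nfkbiz had -0.84 on the low-fat diet (SE 0.197, limma adjusted p = 0.290). Receptors and partners of the member proteins had 9 tested genes. Of these Scarb1, a receptor for high-density lipoprotein, rose with diet averaged over the genotypes (0.28, limma adjusted p = 0.0404). Thus 1 of the 9 passed there, against 4.56% of all genes. By limma 0 of the 9 passed within 1 genotype or between genotypes. At an unadjusted limma p under 0.05 there were 2 of these 9 with diet in knockout livers, against 18.3% of all genes. With diet in wild-type livers there was 1, against 8.82%. Between genotypes there was 1 on the high-fat diet, against 4.46%, and 0 on the low-fat diet, against 8.72%.

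The genes outside the group with the most similar pattern over the 12 livers were named for each member by Pearson's r of the log2 signals. For Lcn2 they were Lgals3bp (0.890), Ifit3 (0.881) and Ildr2 (0.858). For Saa1 they were Apol9a (0.910), Usp18 (0.870) and Rhbg (0.865), and for Saa2 Apol9a (0.898), Usp18 (0.859) and Lgals3bp (0.858). For Saa3 they were Gbp2 (0.951), Gbp2b (0.944) and Cxcl9 (0.922). The Saa3 values hardly changed after subtraction of group means, at 0.879, 0.885 and 0.911. Those of Lcn2 were then 0.623 with Lgals3bp, 0.488 with Ifit3 and 0.642 with Ildr2. Saa4 was closest to Lims2 (0.878), Orm2 to Phf20l1 (0.880), Hp to Fxyd1 (0.885), Hpx to Slc35f5 (0.867), Fgb to Wdr74 (0.956) and Apcs to Abhd10 (0.821). These values are the highest among the 10258 genes tested, over 12 livers of 4 groups, and they carry no test.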

How the data were processed

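Total RNA of 12 liver extracts was labelled with biotin and hybridised to Affymetrix PM arrays, per the labels. The deposited log2 signals of 45141 probe sets were made by the authors with RMA, per the submitters' processing notes, and the sources used here do not give its version. RMA usually forces arrays to a common distribution, so a shift of every gene would not show. The array medians were 3.94 to 4.00 and were left unscaled. Probe sets with several genes (551), none (15588) or a control role (104) were not used. A gene was represented by its brightest probe set, and the dimmest 40% (6839 genes) were left out.

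Group means of 12 arrays (8 residual degrees of freedom) were compared with limma 3.58.1 (variance trend, R 4.3.3) in 7 comparisons. A gene passed at a Benjamini-Hochberg adjusted p of 0.05 over the genes tested, and there was no correction across comparisons. The fit was tested on simulated data. Named genes are Pml, all members, the genes most like each member, and of each list those that passed or the 2 with the smallest p. Members and lists were chosen with earlier results of these data known. Alternatives covered scaling, filters, probe set choice, variance trend, array weights, the replicate number as a block, the arrays fitted and the omission of arrays. Promoters come from RefSeq (GRCm38.p6).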

Additional observations from a re-analysis of the deposited data

How the results depend on the processing

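With 3 arrays a group, the count of members past the threshold depended on single arrays for diet in knockout livers and, less so, for diet averaged over genotypes. For diet in knockout livers it was 3, ranged from 1 to 4 over the omission of single arrays (1 without knockout high-fat replicate 1 or 2 or knockout low-fat replicate 2), and was 1 without the 2 livers low in macrophage markers. In the other 6 comparisons the member count kept to 0, or for diet averaged over genotypes to 3 or 4, under every alternative run. Averaged over genotypes, Hp was gained without wild-type high-fat replicate 3 (0.17, limma adjusted p = 0.029). Of 1676 refitted log2 changes of single probe sets, 1608 kept direction and side of the threshold, 20 lost the call, 12 gained it and 36 turned direction, and 63 of 76 results never turned. The causes were not tested.

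The turned values were small or uncalled. Over single omissions Fgb between genotypes on the high-fat diet ran from -0.014 to 0.057 (0.013 with all arrays), and it was -0.011 with centred arrays and -0.0046 without the 2 livers low in macrophage markers. Between genotypes on the low-fat diet the ranges were -0.59 to 0.18 for Lcn2, -0.57 to 0.078 for Saa1, -0.40 to 0.31 for Saa2, -0.19 to 0.086 for Saa4, -0.58 to 0.14 for Orm2, -0.0058 to 0.056 for Hp and -0.021 to 0.033 for Hpx. Without those 2 livers these changes were 0.078 for Saa1, 0.25 for Saa2 and -0.0058 for Hp, and array weights gave 0.083 for Saa2 and -0.0054 for Hpx. Averaged over diets Orm2 ran from -0.0073 to 0.36. For diet the ranges were -0.025 to 0.13 for Apcs in knockout livers and -0.17 to 0.19 for Orm2 averaged over genotypes, which was 0.018 after quantile normalization, 0.0022 with centring and 0.011 with array weights. Hpx in wild-type livers was 0.026 after quantile normalization, and the difference of diet effects of Hp ran from -0.0039 to 0.12.

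The second Saa2 probe set lost its call in knockout livers (limma adjusted p up to 0.104) and averaged over genotypes (up to 0.0737) in some single omissions. The second Saa4 probe set lost it in knockout livers (up to 0.0819) but not averaged over genotypes (up to 0.00737 over 16 alternatives), and passed in wild-type livers with array weights (limma adjusted p = 0.0349). Averaged over genotypes, Saa3 passed without knockout high-fat replicate 3 (limma adjusted p = 0.0343), and Saa4 passed with the mean of both its probe sets (0.50, limma adjusted p = 0.0105), with the dimmest 60% left out (0.0455) and with array weights (0.0213). Counts over all genes moved by over 1.5 times: 68 to 461 for diet in knockout (311), 5 to 109 in wild-type livers (18), 256 to 776 averaged (468), 0 to 3 between genotypes on the high-fat diet (1), 0 to 4 on the low-fat diet (1), 0 to 5 averaged (2) and 0 to 1 for the difference of diet effects (0).

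The labels do not say whether replicate numbers pair the samples, and the overlapping correlations of the arrays cannot decide it. For arrays of the same number r of the deviations was -0.166 to 0.381 (median 0.0615). For others it was -0.454 to 0.249 (median -0.0281). With the replicate block, 4 members passed for diet in knockout livers and 4 averaged over genotypes, Saa3 being gained (limma adjusted p = 0.0231 and 0.0292), and 74 of 76 log2 changes kept their call.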
